A study of Glycine max with 9 samples.

Results

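The 3 FAD3 copies of soybean, FAD3A, FAD3B and FAD3C, were taken from the expression table by their gene identifiers. They are XLOC_038855 (FAD3A, gene model Glyma14g37350), XLOC_004971 (FAD3B, Glyma02g39230) and XLOC_046873 (FAD3C, Glyma18g06950), 3 of the 33779 genes listed. RNA sequencing was carried out on developing whole seeds at the mid-maturation stage S6 from 9 soybean lines grown under the same chamber conditions, with 1 library per line. N0304-303-3 is labelled as low in palmitic and linolenic acid with mid oleic acid, M23 as mid oleic, and FAM94 (FAM94-41 in the study) as high in stearic acid. R02-6268F, R05-4256, R05-591 and R08-1450 are labelled high oil and R95-1705 high protein, and Jack has oil like that of commodity soybean. The lines are different genotypes and none was treated.

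For each gene the table gives 1 average FPKM (fragment number scaled by transcript length and by mapped reads) across all lines, together with 9 Z-scores. A Z-score gives the distance of a line's log2(FPKM + 1) from the gene's own mean, in units of that gene's standard deviation over the lines. No line has a replicate, so no Z-score has a replicate error, and the table holds no read counts from which a counting error could be given. The 5 seed marker genes matched here, for 2S albumin, glycinins Gy1 and Gy4, lipoxygenase Lox3 and an oleosin, ranked from 1 to 15 by mean FPKM among all genes, and all 5 are typical of maturing seeds. The study reports genes of these kinds among its most abundant transcripts in the same libraries. Their ranks are therefore no independent check of the tissue. R08-1450 stood apart from the other libraries, with a standard deviation of 1.29 over the Z-scores of all genes, against 0.786 to 1.05 in the other 8 lines.

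Seed oil fatty acids are desaturated step by step. FAB2, a plastid stearoyl-ACP desaturase, makes oleic acid, FAD2 introduces the next double bond at the endoplasmic reticulum to give linoleic acid, and FAD3 adds the third to give linolenic acid. Linolenic acid oxidizes readily, so that lines with low FAD3 activity have long been bred for stable oil. FAD3A is also known as the Fan locus, and FAD7 and FAD8 carry out the same omega-3 step in plastids.

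FAD3A was the most abundant copy, followed by FAD3B and FAD3C. FAD3A is on chromosome 14 (46647749 to 46651952) in the genome build used by the authors (Gmax_189 of Williams 82), a span of 4204 bp. Its mean of 40.1 FPKM was rank 1600 of all genes. FAD3B, on chromosome 2 (44497248 to 44501613), averaged 27.9 FPKM and ranked 2378. FAD3C, the shortest span with 2903 bp, is on chromosome 18 (5619432 to 5622334), averaged 11.3 FPKM and ranked 6461. All 3 copies lay above the median of 3.53 FPKM over all genes, and no other listed gene overlapped any of them.

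Together the 3 copies had a mean of 79.3 FPKM. FAD3A held 50.5% of this sum, FAD3B 35.2% and FAD3C 14.3%. FAD3A was thus 1.44 times as abundant as FAD3B and 3.54 times as abundant as FAD3C, on a scale that accounts for transcript length. The means are the authors' own and carry no error, and the copies share reads only as far as the alignment allowed, since reads with more than 1 location had been removed. How many reads of each copy were lost in this way was not tested. A further FAD3 gene that RefSeq lists on chromosome 11, FAD3-2b, was not analysed here.

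The order of the lines differed between the copies, and the widest split was in N0304-303-3. There FAD3A had the lowest Z-score of the 9 lines, FAD3B the highest and FAD3C a value near its mean. FAD3A had a Z-score of -2.31 in N0304-303-3, against 0.93 in M23, 0.79 in R02-6268F, 0.69 in Jack, 0.36 in R05-591, 0.28 in R05-4256, 0.21 in FAM94, -0.38 in R08-1450 and -0.57 in R95-1705. N0304-303-3 therefore lay 1.74 standard deviations below the next line, a gap of 0.539 of the gene's whole range, and the other 8 lines lay within 1.49 of each other. A gap of this relative size, above Dixon's 95% critical value, was found at either end for 8.77% of all genes.

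FAD3B showed another pattern. It had a Z-score of 1.58 in N0304-303-3 and 1.32 in M23, the lines labelled mid oleic. R05-591 was lowest with -1.71, followed by R95-1705 with -0.77 and R08-1450 with -0.48. The remaining 4 lines lay between -0.09 in R05-4256 and 0.06 in Jack, so that FAD3B was nearly level in Jack, FAM94, R02-6268F and R05-4256. The Z-score of R05-591 was 0.94 below the next line, and no line passed a Z-score of 2 in size, the cutoff used by the authors for expression variation.

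FAD3C separated R08-1450 and R95-1705 from the rest. It had a Z-score of -1.75 in R08-1450 and -1.53 in R95-1705, against -0.09 in N0304-303-3, the next lowest line. M23 had the highest value with 0.98, followed by Jack with 0.90, and the median over the lines was 0.38. The gap of 1.44 between R95-1705 and N0304-303-3 was wider than the range of 1.08 over the other 7 lines. R08-1450 and R95-1705 were the lowest pair of lines for 10.3% of all genes, so that FAD3C shared this order with 3474 genes in the table.

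**Figure D1:**
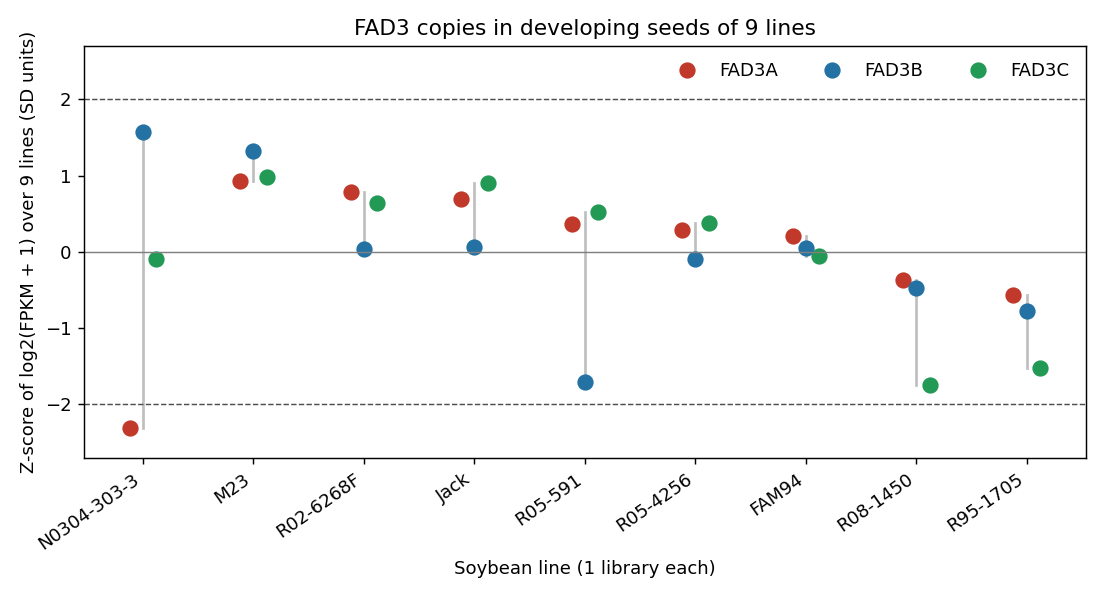
Z-scores (vertical axis, standard deviations of log2(FPKM + 1) over the 9 lines) of FAD3A, FAD3B and FAD3C in each line (horizontal axis), 1 point per copy and library, with N0304-303-3 at the left and the other lines by their FAD3A value. Grey bars join the lowest and highest copy in a line and dashed lines mark a Z-score of 2 in size. In N0304-303-3 the copies span 3.89, from -2.31 for FAD3A to 1.58 for FAD3B, and in M23 they span 0.40.

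Compared line by line, all 3 copies were above their mean log2(FPKM + 1) in M23, Jack and R02-6268F. All 3 were below it in R08-1450 and R95-1705. Some of these signs rest on small values, since FAD3B was at 0.06 in Jack and 0.04 in R02-6268F. In FAM94, FAD3C alone was below, at -0.05. How often 3 genes share a sign in a line was not counted. M23 had the highest mean Z-score over the copies, each copy counted alike, with Z-scores of 0.93 for FAD3A, 1.32 for FAD3B and 0.98 for FAD3C. The mean over the copies was 1.08 in M23, against -0.96 in R95-1705 and -0.87 in R08-1450. The copies differed by 0.26 to 1.37 in 7 of the lines. The difference was 3.89 in N0304-303-3 and 2.23 in R05-591, where FAD3B stood apart with -1.71 against 0.36 for FAD3A and 0.52 for FAD3C.

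The question of whether linoleate desaturase expression was altered in the line labelled low linolenic concerns N0304-303-3 against the other 8 lines. N0304-303-3 was the lowest line for 8.71% of all genes and the highest line for 9.83%. Of the 3 copies, FAD3A alone passed the cutoff, and it did so in N0304-303-3 only. For comparison, 23.8% of all genes passed the cutoff in some line, and 0.639% had a Z-score of -2 or less in N0304-303-3, which is 216 genes. A Z-score of 2 or more there was found for 0.965%. FAD3A ranked 50th from the bottom of these, with 0.148% of all genes at or below its Z-score in N0304-303-3. FAD3B lay toward the other end, with 4.06% of genes at or above its Z-score, and FAD3C near the middle, with 46.1% at or below. With 1 library in the line, these are positions in this library and no test was possible.

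A Z-score cannot exceed 2.67 in size over 9 lines or 2.47 over 8 lines. With the Z-scores recomputed over 8 lines, FAD3A in N0304-303-3 lay between -2.28 and -2.14, near this limit, so that leaving out another line could move it little. FAD3C passed the cutoff as well when R08-1450 was left out (-2.16 in R95-1705) or R95-1705 was left out (-2.21 in R08-1450).

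The table gives no FPKM per line, but the Z-scores and the mean FPKM limit it. Every spread of the log2 values that keeps all FPKM at or above 0 was allowed, and the lowest and highest FPKM in each line were taken over these spreads. FAD3A lay between 0 and 40.1 FPKM in N0304-303-3, against 10.4 to 40.1 FPKM in R95-1705 and 13.8 to 40.1 FPKM in R08-1450. It lay between 40.1 and 89.9 FPKM in M23, 40.1 and 73.8 FPKM in R02-6268F, and 40.1 and 64.2 FPKM in Jack. FAD3A was most narrowly fixed in R05-591, at 40.1 to 44.1 FPKM. It was also narrowly fixed in R05-4256, at 35.9 to 42.3 FPKM, and in FAM94, at 32.5 to 41.2 FPKM.

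FAD3B was at least 27.9 FPKM in N0304-303-3 and at most 117 FPKM, and it lay between 27.9 and 80.9 FPKM in M23. In the other 7 lines it was at most 27.9 FPKM, with a lower limit from 0 in R05-591 to 12.1 FPKM in Jack. FAD3C was between 6.17 and 11.3 FPKM in N0304-303-3 and at most 24.8 FPKM in any line, the limit in M23. FAD3B was therefore above FAD3C in N0304-303-3 at every FPKM the values allow, whereas the table's values alone did not fix the place of FAD3A there.

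**Figure D2:**
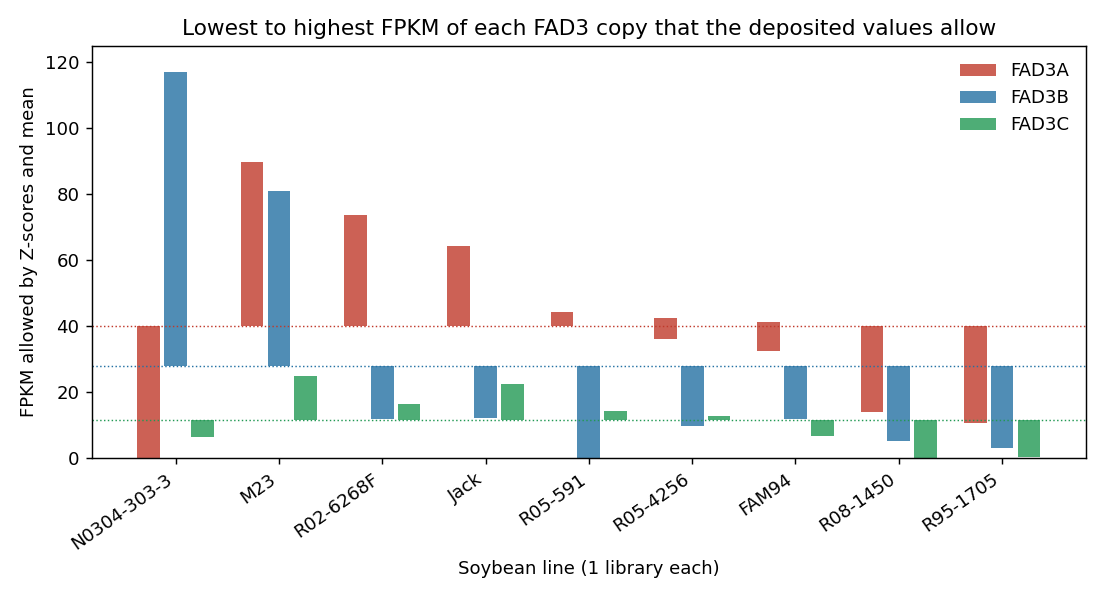
Lowest to highest FPKM (vertical axis, linear, bars) of each FAD3 copy in each line (horizontal axis) that its Z-scores and mean FPKM allow, with dotted lines at the mean FPKM of each copy. The bars are limits, not errors. The FAD3A bar of N0304-303-3 reaches from 0 to 40.1 FPKM, and that of FAD3B in the same line starts at 27.9 FPKM.

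By the same limits, FAD3A was more abundant than FAD3C in 7 lines, all but N0304-303-3 and R95-1705, where these limits did not fix the order. FAD3A exceeded FAD3B in 5 lines, namely Jack, FAM94, R02-6268F, R05-4256 and R05-591. FAD3B exceeded FAD3C in FAM94, M23 and N0304-303-3. FAD3C was shown to exceed another copy in 0 lines. The share of FAD3A in the family was at most 54.1% in N0304-303-3 and at least 48.9% in R05-591, where FAD3B could hold no more than 35.2%. The family as a whole had at least 79.3 FPKM in M23 and at most 79.3 FPKM in R08-1450 and in R95-1705, and in N0304-303-3 it lay between 34.1 and 168 FPKM.

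To ask whether the copies vary together, their Z-scores were correlated over the lines in 3 pairs. FAD3A and FAD3C had nearly the same order of lines. Spearman's rho was 0.917 (exact two-sided permutation p = 0.00131, adjusted 0.00394 over the 3 pairs), whereas Pearson's r was 0.507 (exact permutation p = 0.155, adjusted 0.455). The difference between these values came with N0304-303-3, in which FAD3A was in the last place and FAD3C in place 7 of 9. Without that line r was 0.954 over 8 lines (exact permutation p = 0.000521), and without N0304-303-3 and R95-1705, the lines farthest from the FAD3A median, it was 0.931.

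R08-1450 and R95-1705 form a low group for FAD3C. Within the other 7 lines r of FAD3A with FAD3C was 0.740 (exact permutation p = 0.000992) and rho 0.964 (exact permutation p = 0.00278). In the 6 lines left after N0304-303-3 was also removed, r was 0.875 (exact permutation p = 0.0181). These subsets were chosen after the values were seen. Among 27178 other genes averaging 1 FPKM or more, 0.375% had a rho with FAD3A as high as that of FAD3C, which was 102 genes with FAD3C included. Over the 8 lines without N0304-303-3, 0.147% of these genes reached the r of FAD3C with FAD3A. The share was larger by the other measures, with 11.3% for r over all 9 lines. It was 4.49% for r over the 7 lines and 1.19% for r over the 6 lines. Counted from FAD3C, the likeness was less particular. A rho with FAD3C as high as that of FAD3A was found for 315 genes (1.16%), FAD3A included. Over the 8 lines, 136 genes reached the r of FAD3A with FAD3C, against 40 counted from FAD3A. Over all 9 lines the share counted from FAD3C was 24.4%.

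FAD3B followed neither copy beyond the spread of the lines. Pearson's r of FAD3B was -0.294 with FAD3A (exact permutation p = 0.424, adjusted 0.455) and 0.290 with FAD3C (exact permutation p = 0.455, adjusted 0.455). Spearman's rho was 0.133 with FAD3A (exact permutation p = 0.744, adjusted 0.744) and 0.367 with FAD3C (exact permutation p = 0.336, adjusted 0.504). The sign of the relation between FAD3A and FAD3B rested on N0304-303-3, since r was 0.540 without that line and 0.498 without N0304-303-3 and R95-1705. Without N0304-303-3 and R05-591, the lines farthest from the FAD3B median, r of FAD3B with FAD3C was 0.755.

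**Figure D3:**
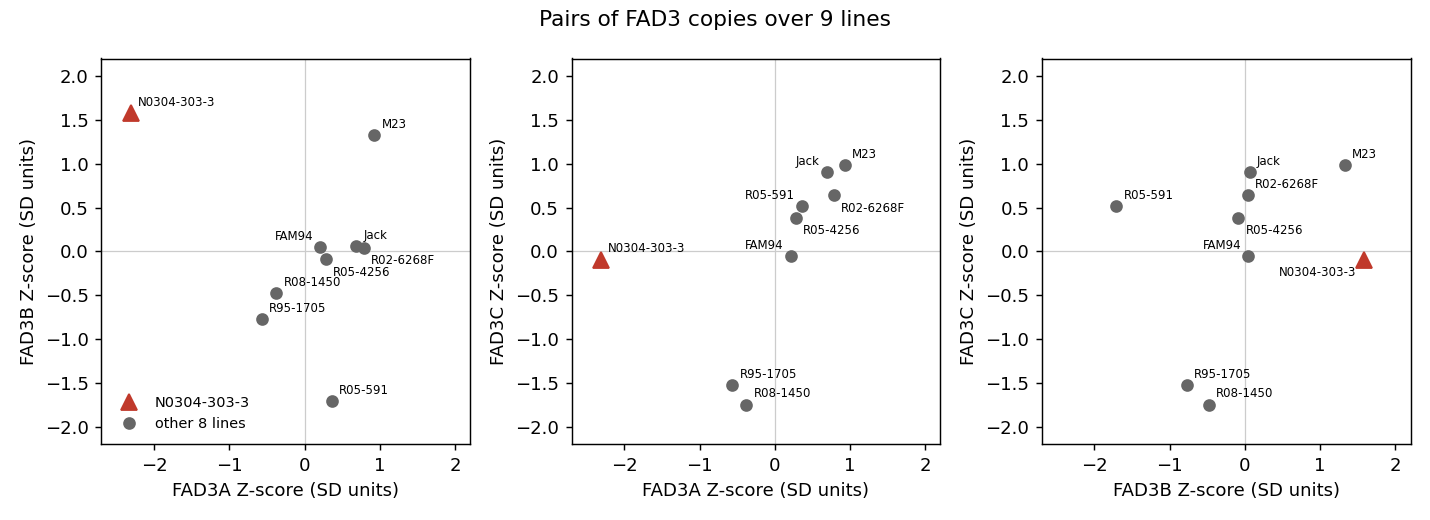
Z-scores of each pair of FAD3 copies (both axes in standard deviations over the 9 lines), 1 point per line, with N0304-303-3 as a red triangle and the other 8 lines as grey points. In the middle panel the 8 grey points of FAD3A and FAD3C have an r of 0.954 and N0304-303-3 lies apart at -2.31 and -0.09. In the left panel N0304-303-3 lies at the upper left, at -2.31 for FAD3A and 1.58 for FAD3B.

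The labels allow 2 further comparisons. In the 2 lines labelled mid oleic, FAD3B had a mean Z-score of 1.45 ± 0.18, against -0.41 ± 0.65 in the other 7 lines (SD, lines as units). The groups did not overlap, since the highest of the other lines was Jack with 0.06, and M23 and N0304-303-3 were the highest pair of lines for 1.77% of all genes. The exact two-sided permutation p was 0.0556, the smallest that 36 splits can give, and 0.333 after adjustment over the 6 label comparisons. The study's tree places M23 and N0304-303-3 in the same group, together with FAM94, and the test takes no account of this. FAD3A had -0.69 ± 2.29 in the mid oleic lines, against 0.20 ± 0.51 in the other 7 (exact permutation p = 0.444, adjusted 0.80), as M23 was its highest line and N0304-303-3 its lowest. FAD3C had 0.44 ± 0.76, against -0.13 ± 1.07 (exact permutation p = 0.667, adjusted 0.80).

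Between the 4 lines labelled high oil and the other 5 no copy differed beyond the spread of the lines. FAD3B had a mean Z-score of -0.56 ± 0.80 in the high oil lines, against 0.45 ± 0.98 in the others (SD, exact permutation p = 0.175, adjusted 0.524). Without R95-1705, the exact permutation p for FAD3B was 0.0286 unadjusted, with a difference of -1.31. FAD3A had 0.26 ± 0.48 in the high oil lines, against -0.21 ± 1.30 in the others (exact permutation p = 0.603, adjusted 0.80), and FAD3C had -0.05 ± 1.13, against 0.04 ± 1.01 (exact permutation p = 0.937, adjusted 0.937).

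Other desaturase genes named in the study's text, or in the part of its gene lists used here, were set beside the FAD3 copies. Desaturase genes in the rest of those lists were not compared. All 7 were matched to 1 gene each, and 3 of them came from the authors' own list of genes with expression variation, so that their passing the cutoff carries no weight. In N0304-303-3 none of the 7 passed the cutoff, and their Z-scores lay between -0.49 for FAD2-1B and 0.39 for FAD2-1A. Of the 10 desaturase genes compared, FAD3A alone was thus past the cutoff in that line, where 0.639% of all genes were as low as -2. The study itself names FAD3A for its low expression in that line, so its passing the cutoff is no independent evidence.

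FAD2-1B, one of the FAD2 enzymes that supply the linoleic acid used by FAD3, had a mean of 2846 FPKM, 35.9 times the sum of the FAD3 copies. FAD2-1A had a mean of 384 FPKM and a Z-score of -2.40 in M23, the line in which the study describes a deletion that includes this gene. FAD3A, FAD3B and FAD3C were each above their means in the same library. Of the FAB2 genes, FAB2B was lowest in R05-591 with -2.35, the line in which FAD3B and 13.8% of all genes were also lowest, and FAB2C was lowest in FAM94 with -1.37. Of the other desaturase genes compared, FAB2A, with a mean of 35.43 FPKM, was closest to FAD3A in abundance. The lowest Z-score of FAB2A was -1.78 in R05-4256.

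Of the plastid omega-3 desaturases, the FAD8 genes Glyma01g29630 and Glyma03g07570 were both lowest in R08-1450, with -2.31 and -2.38. FAD3C was also lowest in that library, with -1.75, whereas FAD3A was at -0.38 and FAD3B at -0.48. R08-1450 had the widest spread of Z-scores over all genes, with a standard deviation of 1.29. The share of all genes lowest in R08-1450 was not counted, so a shared pattern of these genes cannot be read from this. The FAD8 genes had means of 2.43 and 4.63 FPKM, below that of FAD3C.

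For each copy, the genes most similar over the 9 lines were found by Pearson's r among genes averaging 1 FPKM or more. For FAD3A the most similar was XLOC_053756 on chromosome 20, with an r of 0.971 and a mean of 1.83 FPKM. All 20 most similar genes had their lowest Z-score in N0304-303-3, and 20 of 27178 genes had an r of at least 0.9. In the part of the authors' list used here, 3 of the 20 had a function. These were the leucine-rich repeat protein kinase gene Glyma05g08140 (r = 0.946), the homeodomain-like gene Glyma05g07980 (r = 0.928) and the KOW domain gene Glyma02g16450 (r = 0.922). Genes outside that part could not be annotated, whether or not the study annotates them.

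FAD3B had few similar genes, with 6 genes at an r of at least 0.9. The closest was XLOC_044031 on chromosome 17, with an r of 0.943. FAD3C had many, with 430 genes at 0.9 or more and 974 at -0.9 or less, together 5.17% of the genes compared. The corresponding share for FAD3A was 0.132% and that for FAD3B 0.0331%. The gene closest to FAD3C was XLOC_017436 on chromosome 7, with an r of 0.988. These correlations are descriptions over the same 9 libraries, and a single line far from the others, as N0304-303-3 for FAD3A, raises r between any genes that share it. Without N0304-303-3 the r of FAD3A with its 20 most similar genes lay between 0.620 and 0.963, with a median of 0.833. It was 0.886 for XLOC_053756, 0.770 for Glyma05g08140, 0.723 for Glyma05g07980 and 0.654 for Glyma02g16450.

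The neighbours of the copies on the chromosomes were examined next, with 5 listed genes on either side. FAD3A stood lower in N0304-303-3 than any of its 10 neighbours, whose Z-scores there lay between -1.99 and 1.77 with a median of -0.94. Only 0.148% of all genes lay at or below FAD3A in that line. Most sets of 10 genes would therefore lie above it, wherever they are in the genome. The nearest gene on either side lay 11.7 kb away with -0.04 and 12.0 kb away with -0.90. Neighbours past the cutoff in N0304-303-3 numbered 0, where 0.639% of all genes were at -2 or less and 0.965% at 2 or more. The median over all genes in that line was -0.00414.

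Farther from FAD3A, 2 of its 20 most similar genes lay on the same chromosome, 338 kb toward higher and 422 kb toward lower coordinates, with Z-scores of -1.89 and -1.75 in N0304-303-3. Of the 49 genes within 500 kb of FAD3A that averaged 1 FPKM or more, 7 were lowest in N0304-303-3, a share of 14.3%. The share was 7.59% over all genes averaging 1 FPKM or more. No test was made of this difference.

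Of the 10 neighbours of each copy, 1 of FAD3A and 1 of FAD3B had an r of at least 0.7 with it. For FAD3A this was XLOC_037797, 87175 bp away, with an r of 0.785 and a Z-score of -1.87 in N0304-303-3, and 3.19% of all genes reached 0.7 with FAD3A. For FAD3B, the gene whose span starts 18.9 kb beyond FAD3B (XLOC_003473, mean of 8.15 FPKM) had an r of 0.828 with it, with Z-scores of 1.34 in N0304-303-3 and 1.402 in M23, against -1.57 in R05-591. An r of at least 0.7 with FAD3B was found for 1.33% of all genes. XLOC_004972, listed with the same span as XLOC_003473, had an r of -0.38 with FAD3B, and reads of genes that share a span cannot be told apart without strand. The 10 neighbours of FAD3C had r between -0.84 and 0.63 with FAD3C, and 0 of them reached 0.7.

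**Figure D4:**
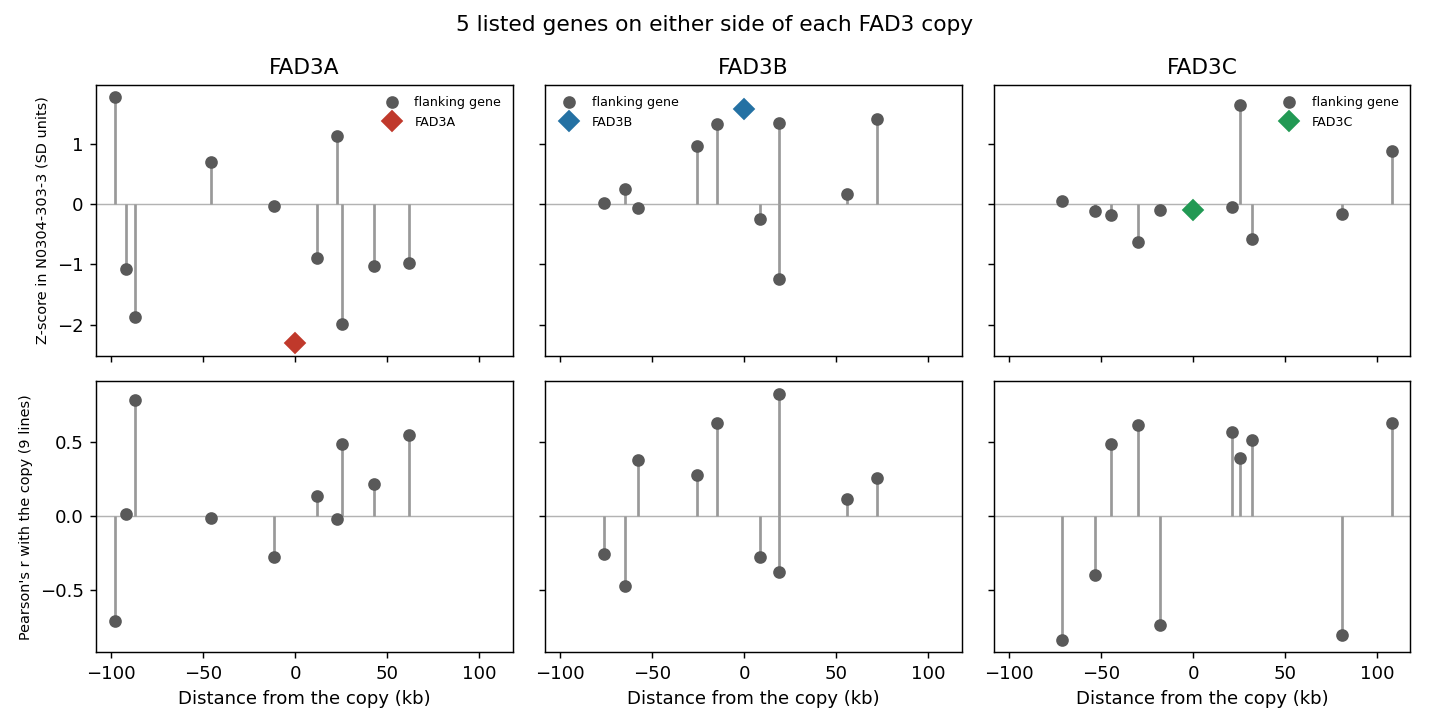
Upper panels show Z-scores in N0304-303-3 (vertical axis, standard deviations) of the 5 listed genes on either side of each FAD3 copy (grey points) and of the copy itself (coloured diamond), against distance from the copy in kb (horizontal axis). Lower panels show Pearson's r of each neighbour with the copy over the 9 lines. FAD3A at -2.31 lies below its 10 neighbours, the lowest of which is at -1.99, and 1 neighbour of FAD3B reaches an r of 0.828. Only 0.148% of all genes lie at or below FAD3A in this line.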

How the data were processed

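The authors prepared 1 library of S6 seeds per line and shortened the 100 bp reads to 90 bp. Alignment to Williams 82 used Bowtie 0.12.8 and TopHat 1.4.0, and only reads with 2 mismatches or fewer and a single location were retained. The limit holds per read, so that only reads that themselves carry more than 2 differences would be lost. FPKM came from Cufflinks and Cuffdiff 2.1.1 with annotation Gmax_189 (Phytozome 9.1). A gene was listed by the authors if its mean reached 0.5 FPKM or if all lines expressed it. The deposited table holds the mean FPKM over 9 lines and, per line, a Z-score of log2-transformed FPKM. A Z-score has no unit, and the deposited scores were used unchanged. Columns per line left unused numbered 0.

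A constant of 1 added before log2 was identified from the lowest and highest FPKM listed by the authors for 99 abundant genes: of 7 constants tried, 1 gave the deposited mean most closely for all 99 genes, to within 7.36e-07%. No FPKM of the paper entered the limits per line. Lines were the units of all tests. Correlations and label comparisons used exact permutation, two-sided, with Benjamini-Hochberg adjustment, and p-values measure only the spread between these libraries. How many plants gave each library is not given in the sources used here. Members, gene lists and comparisons were chosen with earlier results of these data known. Genes named were the FAD3 copies, the most similar gene of each copy, and the desaturase genes named in the study's text or in the part of its lists used here. Any of its 20 most similar genes annotated in the part of the authors' list used here was named as well. XLOC_003473, XLOC_004972 and the genes near FAD3A were chosen after their values were seen. FAB2A and FAB2C were matched by chromosome and mean FPKM, the others by span or mean FPKM. RefSeq (Glycine_max_v4.0) was used for symbols and chromosomes only, and it places FAD3A, FAD3B and FAD3C on the same chromosomes as the table. Alternatives were other cutoffs, filters, constants, Spearman's rho, subtraction of line medians, wider neighbourhoods and leaving out each line. Correlations without the lowest line of a copy, without R08-1450 and R95-1705, and against all genes were added after seeing the data. Steps were tested on simulated data. Python 3.11.15, NumPy 2.4.6, SciPy 1.17.1, pandas 2.3.3 and Matplotlib 3.10.9 were used.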

Additional observations from a re-analysis of the deposited data

Results flagged for a closer look

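For FAD3A, N0304-303-3 lay far from the other lines, with a gap to the next line of 0.539 of the whole range, above Dixon's 95% critical value for 9 values. The 9 values are lines and not replicates of 1 group. A gap above that critical value, in any line and at either end, was found for 8.77% of all genes, where chance gives about 1 in 20. The share with N0304-303-3 as the low line, which counts 1 line and 1 end only, was 0.258% and is not to be read against that rate.

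Of the other desaturase genes, the gap was 0.535 of the range for FAD2-1A, with M23 low, and 0.577 for FAB2B, with R05-591 low. It was 0.520 for the FAD8 gene Glyma01g29630 and 0.614 for the FAD8 gene Glyma03g07570, both with R08-1450 low. FAB2B and both FAD8 genes were taken from the authors' list of variable genes, so that their gaps are no independent evidence. The study itself describes a deletion that includes FAD2-1A in M23, with expression barely above background. The gap of FAD2-1A is therefore no independent evidence either.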

How the results depend on the processing

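No paired analysis was possible because each line has 1 library. With a cutoff of 1.5, 3 FAD3 copies passed it. With each line left out in turn, 0 to 2 copies passed, with 0 without N0304-303-3 and 2 without R08-1450 or without R95-1705. The 216 genes at -2 or less in N0304-303-3 became 89 at the stricter cutoff of 2.2, and 21 with a mean of 10 FPKM or more, where fewer genes were tested.

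The correlation of FAD3A with FAD3B turned positive as Spearman's rho (0.133), and ranged from -0.573 to 0.540 with each line left out, positive without N0304-303-3. That of FAD3A with FAD3C passed the threshold as Spearman's rho (0.917) and without N0304-303-3, with a range of 0.435 to 0.954. The high oil difference ranged from -0.052 to 0.76 for FAD3A (negative without N0304-303-3), from -1.31 to -0.62 for FAD3B (past an unadjusted threshold without R95-1705) and from -0.49 to 0.47 for FAD3C (0.12 without Jack, 0.14 without M23 and 0.47 without R08-1450). The mid oleic difference of FAD3A ranged from -2.51 to 0.73, positive without N0304-303-3, where 1 mid oleic line was left. The cause of these changes was not tested.

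With a constant of 0.1, FAD3A exceeded FAD3B in 3 lines and FAD3B exceeded FAD3C in 1. With 0.01, these numbers were 2 and 1, and the highest FPKM of FAD3A in M23 was 136. Of the 20 most similar genes, Spearman's rho shared 1 for FAD3A, 8 for FAD3B and 0 for FAD3C, and a filter at 10 FPKM shared 2 for FAD3A, 11 for FAD3B and 10 for FAD3C. The other 128 values kept their side of any threshold or moved by less than the spread of the lines, and 3 of them changed sign near 0, namely the Z-score of FAD3C in N0304-303-3 (0.02 without Jack, 0.03 without M23) and the median of the FAD3B neighbours there (-0.03 with 10 genes on either side). Without replicates or read counts, no difference between lines could be set against sampling error.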
